A study of Homo sapiens with 8 samples.

Results

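The 6 genes ERG, AGAP1, PTPRM, STAP1, CCNJ and CLEC12A are known to mark DUX4-rearranged B-cell acute lymphoblastic leukaemia, the subtype to which the NALM6 line belongs. They were taken by name, with every transcript row, from 27448 genes in the table of all reads, and 3 of them (ERG, AGAP1 and STAP1) were also among the 6994 genes of the table of converted reads. In DUX4-rearranged leukaemia a translocated copy of the DUX4 gene, a homeobox transcription factor normally active in the early embryo, is switched on in B-cell precursors. DUX4 then binds inside the ERG gene and starts a shortened ERG transcript there, and the other markers are surface, signalling and cell-cycle genes by which the subtype is recognised in patient expression profiles.

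NALM6 is an established human precursor B-cell leukaemia line, engineered here to carry a doxycycline-inducible HMGN1 gene, which encodes a small protein that binds nucleosomes. New RNA was measured by SLAM-seq, in which 4-thiouridine taken up into RNA is read as T-to-C conversions in the sequence. The 8 libraries comprised 3 of the line with the wild-type HMGN1 construct given vehicle (called vehicle), 3 of the same line given doxycycline (induced wild type), and 2 of a line with the S20,24E mutant of HMGN1 given doxycycline (induced mutant). Doxycycline was used at 100 ng/ml for 6 h, every library received 4-thiouridine at 100 µM for the last 5 h, and 4 µg of RNA entered each preparation. All groups share the NALM6 background and the label, and no vehicle libraries of the mutant line were among the samples used, so the mutant construct and the line that carries it cannot be told apart. Doxycycline itself differs between vehicle and both other groups in the same way as HMGN1 induction. Nothing in the labels says that replicates came from separate cultures, so p-values measure the spread between these libraries, which may be technical.

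Values of a group are given below in the order of replicates A, B and C, of which the induced mutant has A and B. Library depth ran from 7.99 to 17.7 M reads. HMGN1 ran from 145 to 191 CPM (reads scaled to library depth) with vehicle, from 217 to 317 CPM in the induced wild type and from 200 to 223 CPM in the induced mutant. The converted share, which is the conversion rate averaged over all gene reads, ran from 2.64% to 5.20% and was lowest in vehicle replicate A, induced wild-type replicate B and induced mutant replicate B. The labelled cell type was checked against its markers: 14 of 14 precursor B-cell genes had a mean of at least 1 CPM, among them IGLL1 (602 CPM) and CD79B (321 CPM). None of 6 T-cell, 7 erythroid and megakaryocytic or 4 endothelial genes reached that level, and 3 of 9 myeloid genes did, of which CSF1R had 415 CPM at a conversion rate of 0.0119%.

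The sequences around the ERG starts are shown first because ERG rows with different starts are compared below. RefSeq (GRCh38.p14) lists 4 ERG start windows of 300 bases, each from 250 bases before a start to 50 after it. The most distal lies at chr21:38660618-38660917 on the minus strand, and the more upstream of the 2 proximal windows at chr21:38498455-38498754 on the minus strand. Capitals mark the GC box GGGCGG and the CCAAT box CCAAT, searched on both strands, with no overlap between matches.
ERG distal start: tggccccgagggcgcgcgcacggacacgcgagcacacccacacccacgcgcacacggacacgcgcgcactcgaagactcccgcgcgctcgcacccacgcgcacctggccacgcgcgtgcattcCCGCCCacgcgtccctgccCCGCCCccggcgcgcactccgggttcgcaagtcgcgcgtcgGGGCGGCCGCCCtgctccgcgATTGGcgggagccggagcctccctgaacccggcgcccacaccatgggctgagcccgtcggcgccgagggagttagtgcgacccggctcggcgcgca
ERG proximal start: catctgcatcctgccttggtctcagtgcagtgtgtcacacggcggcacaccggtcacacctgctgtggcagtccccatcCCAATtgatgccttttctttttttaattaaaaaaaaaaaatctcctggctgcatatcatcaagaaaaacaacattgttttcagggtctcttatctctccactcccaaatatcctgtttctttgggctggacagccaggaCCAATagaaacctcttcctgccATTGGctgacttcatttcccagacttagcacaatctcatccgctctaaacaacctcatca
The distal window is 77% G and C and holds 4 GC boxes and 1 CCAAT box. The proximal window is 45.7% G and C and holds 3 CCAAT boxes and no GC box. Over all 35116 RefSeq promoter windows the median was 58.7% G and C, 45% held a GC box and 34.6% a CCAAT box. A match describes these letters only, and the known DUX4-driven ERG start lies elsewhere in the gene.

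ERG encodes a transcription factor of the ETS family that acts in blood stem cells, megakaryocytes and endothelium. Its highest row held 19.9, 27.6 and 31.9 CPM with vehicle, 25.3, 19.7 and 36.7 CPM in the induced wild type, and 20.2 and 16.5 CPM in the induced mutant. Both mutant libraries lay at the lower end of the other 6, but mutant replicate A stood above vehicle replicate A and induced wild-type replicate B. Rows were taken to count whole gene spans with introns, since 44 of 44 pairs of transcripts with the same span had identical values. That check took only rows with a mean of at least 20 CPM, so it does not cover the lower ERG rows. In ERG, NM_001243432 and NM_001136154 match the same GENCODE transcript of 282 kb, but held 24.7 and 24.4 CPM on average. NM_001291391 has a GENCODE span of the same length and held 7.82 CPM. Whether whole spans were counted for ERG is therefore not settled. The higher ERG rows are set against each other below only on that assumption.

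The row that starts at the distal promoter (NM_004449, a span of 282 kb in GENCODE 29) held 2463 reads over the 8 libraries. The row that starts at the proximal promoter (NM_182918, a span of 118 kb) held nearly the same reads, with 12 fewer, or 0.487% of the distal-start row. By library the difference was 1, 0, 0, 3, 0, 5, 1 and 2 reads in the order given above. If rows count whole spans, the stretch between the distal and the proximal start carried almost no reads in any group, introns included. Since ERG rows of the same span length differed, that condition is not settled, and the start in use was not tested. The proximal-start row carried 156 to 565 reads per library. The highest row, NM_001243432, held 27 reads more than the distal-start row over the 8 libraries.

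A further ERG row, NM_001291391, held 7.82 CPM on average, 32% of the distal-start row, with 29.9% as its lowest and 35.3% as its highest share. The non-coding row NR_111949 held 2.07 CPM, or 8.48% of the distal-start row, from 5.39% to 15.5% by library. The boundaries that the authors used for these 2 rows are not known here, so no start can be read from them. The conversion rate of ERG averaged 6.72%, at percentile 57.3 of the genes with a mean of at least 5 CPM, whose median was 6.24%. By library it ran from 5.37% in induced mutant B to 8.19% in induced mutant A, so the 2 mutant libraries bounded all the others.

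**Figure D1:**
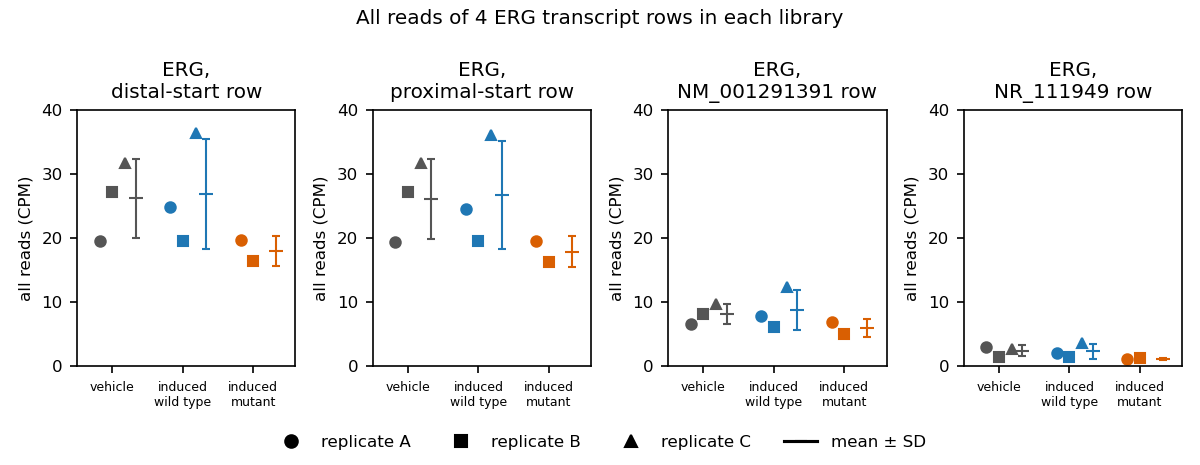
All reads (CPM, vertical axes) of 4 ERG transcript rows in the 8 libraries, by group, with points for replicates and the mean ± SD beside them. The distal-start and proximal-start panels are nearly the same picture, and the NM_001291391 and NR_111949 rows lie far below them.

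CCNJ encodes cyclin J, a little-studied cyclin. It held 2.47, 5.73 and 6.48 CPM with vehicle, 6.12, 2.88 and 9.56 CPM in the induced wild type, and 5.98 and 2.76 CPM in the induced mutant, from 22 to 132 reads. The induced wild type spanned nearly the whole range, the groups overlapped, and the 3 lowest libraries were the same 3 that had the lowest converted share. Its spread over libraries was the widest of the 6 genes, with a CV of 46.2% against a median of 23.4% over all genes with a mean of at least 1 CPM. The part of the converted share in this spread was not tested.

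CCNJ shares its stretch with ENTPD1-AS1, an antisense gene, and no source used here says whether counting used the strand. The short ENTPD1-AS1 rows held 2.92, 5.38 and 5.41 CPM with vehicle, 5.56, 3.01 and 9.56 CPM in the induced wild type and 5.30 and 2.50 CPM in the induced mutant. These values followed those of CCNJ library by library. Unless strand was used, reads of the 2 genes cannot be told apart. Of 19 genes with at least 20 CPM that lie inside another gene on the opposite strand, the outer gene was at least as high in every library in 15. On the same strand this held in 265 of 265. These counts do not settle whether strand was used. The 3 CCNJ rows were identical, and the conversion rate averaged 6.90% (percentile 60.5).

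STAP1 encodes an adaptor protein that is phosphorylated by TEC-family kinases downstream of B-cell receptors. It held 63.4, 80.4 and 83.1 CPM with vehicle, 78.6, 60.7 and 83.9 CPM in the induced wild type, and 57.1 and 52.8 CPM in the induced mutant, from 485 to 1475 reads. Both mutant libraries were below all 6 others. The share of all genes with that pattern was not computed. Of all genes, 11.4% were lower in both mutant libraries than in every vehicle library, and 13.2% than in every induced wild-type library. Both STAP1 rows were identical. Its conversion rate averaged 3.41% (percentile 19.2), below the median gene in every library, and in converted reads it had 5.76, 6.65 and 10.0 FPKM with vehicle, 8.90, 4.39 and 10.3 FPKM in the induced wild type and 6.84 and 5.52 FPKM in the induced mutant, with overlapping groups. In these bulk libraries, fewer cells with a transcript and fewer copies per cell cannot be told apart.

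CLEC12A encodes an inhibitory C-type lectin receptor best known on myeloid cells. It held 3.26, 3.99 and 4.39 CPM with vehicle, 3.68, 3.38 and 4.49 CPM in the induced wild type, and 2.12 and 2.33 CPM in the induced mutant, from 22 to 78 reads. Both mutant libraries were again below all 6 others, beside the same 11.4% and 13.2% of all genes in the separate comparisons. Its highest row overlaps CLEC1B (0.267 CPM) and CLEC12A-AS1 (0.0108 CPM), both with few reads. The conversion rate averaged 2.61% (percentile 12.8) but rested on few reads, and it ran from 0.996% to 4.58%.

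PTPRM encodes a receptor-type tyrosine phosphatase that mediates adhesion between like cells. It held 2.25, 3.13 and 1.75 CPM with vehicle, 1.60, 2.13 and 3.26 CPM in the induced wild type, and 1.64 and 1.29 CPM in the induced mutant. These values come from only 15 to 45 reads over a span of 840 kb. The mutant libraries were below all vehicle libraries, as in 11.4% of all genes, while 1 induced wild-type library (A) lay between the 2 mutant libraries. Its conversion rate averaged 5.03% and ran from 1.61% to 8.22%.

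**Figure D2:**
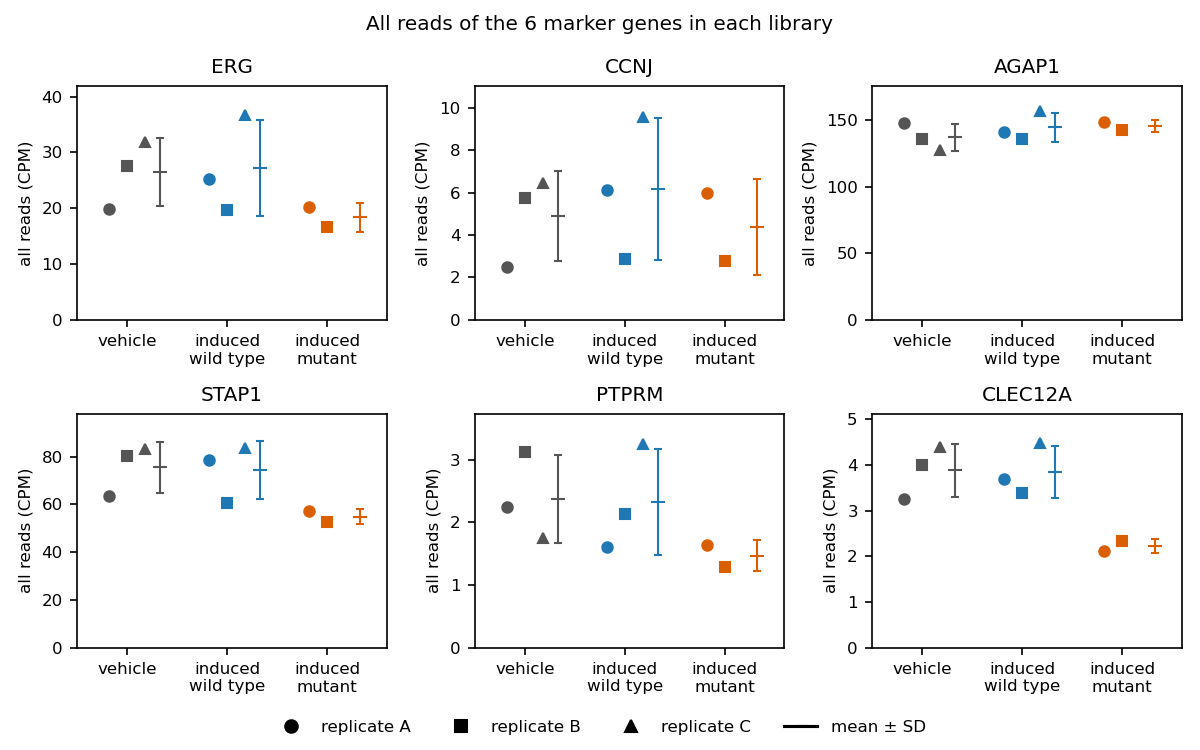
All reads (CPM, vertical axes from 0) of the 6 marker genes in the 8 libraries, by group, with points for replicates and the mean ± SD beside them. STAP1 and CLEC12A are lower in both induced mutant libraries than in every other library, and the CCNJ points of the 3 groups overlap. Of all genes, 11.4% are lower in the mutant than in every vehicle library and 13.2% than in every induced wild-type library.

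AGAP1 encodes a GTPase-activating protein for Arf proteins, which direct membrane traffic in endosomes. Its 2 long rows were identical and held 147, 136 and 128 CPM with vehicle, 141, 136 and 157 CPM in the induced wild type, and 149 and 142 CPM in the induced mutant. These were the steadiest values of the 6 genes, with a CV of 6.37%. Its conversion rate was low, at 2.87% on average (percentile 14.6).

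The third AGAP1 row, NM_001244888, covers the 5′ portion of the gene (359 kb of a long span of 632 kb) and held other values. It had 11.8, 20.2 and 23.9 CPM with vehicle, 25.3, 30.1 and 46.1 CPM in the induced wild type, and 52.8 and 29.6 CPM in the induced mutant, from 105 to 636 reads. Every induced library, wild type or mutant, was above every vehicle library. The share of all genes with that joint pattern was not computed. By the lowest row of each gene, 2.55% of genes were above vehicle in every induced wild-type library and 4.65% in every induced mutant library. The short row was chosen for description after its values were seen, and it shares the vehicle libraries between both comparisons. Over the 8 libraries its log2(CPM + 1) had a Pearson r of 0.76 and a Spearman rho of 0.57 with the converted share. The part of the converted share in the pattern of the short row was not tested.

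The reads of the short row were also more converted, at 7.63%, 7.40% and 8.15% with vehicle, 9.79%, 9.69% and 9.35% in the induced wild type, and 9.67% and 8.62% in the induced mutant. The rest of the long row, outside the short row, held 112 CPM on average, from 96.2 to 136 CPM, at a mean conversion rate of 1.30%. The short row made up 8.01% of the long row in vehicle A and 35.4% in induced mutant A. If rows count whole spans, the long row of AGAP1 is mostly reads of low conversion from the 3′ portion.

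In that 3′ portion, outside the span of the short row, GENCODE 29 places TMSB10P1, a processed pseudogene of TMSB10 (thymosin beta 10, an actin-binding protein), on the opposite strand at chr2:235882362-235882493 (GRCh38, minus strand). The pseudogene is shown with the matching coding stretch of TMSB10, because reads of a near-identical copy can be placed on either. Such reads would enter an AGAP1 row only if counting did not use the strand, which no source used here says. Capitals mark the bases that differ, including 3 bases that TMSB10P1 lacks.
TMSB10P1: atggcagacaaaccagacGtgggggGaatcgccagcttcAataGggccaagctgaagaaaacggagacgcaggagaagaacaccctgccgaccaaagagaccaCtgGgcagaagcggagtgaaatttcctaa
TMSB10: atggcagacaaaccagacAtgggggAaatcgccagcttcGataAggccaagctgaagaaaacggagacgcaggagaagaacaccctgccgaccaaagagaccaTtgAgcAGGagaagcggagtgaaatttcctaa
Of the 132 bases of TMSB10P1, 126 (95.5%) were the same in TMSB10. TMSB10 held 1019 CPM on average at a mean conversion rate of 1.62%. The part of TMSB10 reads in the AGAP1 long row was not tested, since read positions within a row are not used here.

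**Figure D3:**
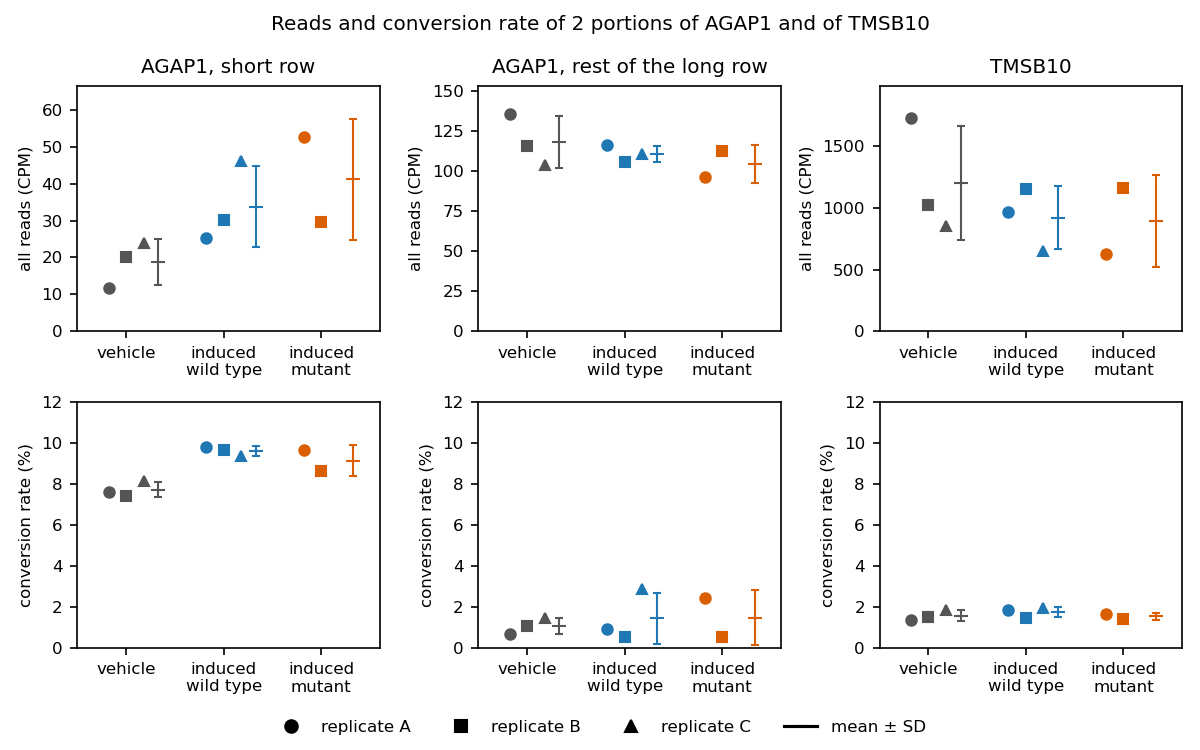
All reads (CPM, upper panels) and conversion rate (%, lower panels) of the AGAP1 short row, of the rest of the AGAP1 long row and of TMSB10, by group, with points for replicates and the mean ± SD beside them. The short row is higher in all 5 induced libraries than with vehicle and converted at 7.40% or more, while the rest of the long row and TMSB10 lie at 2.85% or less. By the lowest row of each gene, 2.55% of genes are above vehicle in every induced wild-type library and 4.65% in every induced mutant library.

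The conversion rates of ERG and CCNJ, the transcription factor and the cyclin, lay above the median gene in 6 and 7 of the 8 libraries, whereas those of STAP1, CLEC12A and the AGAP1 long row lay below it in all 8 libraries. PTPRM lay below the median in 7 of 8.

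**Figure D4:**
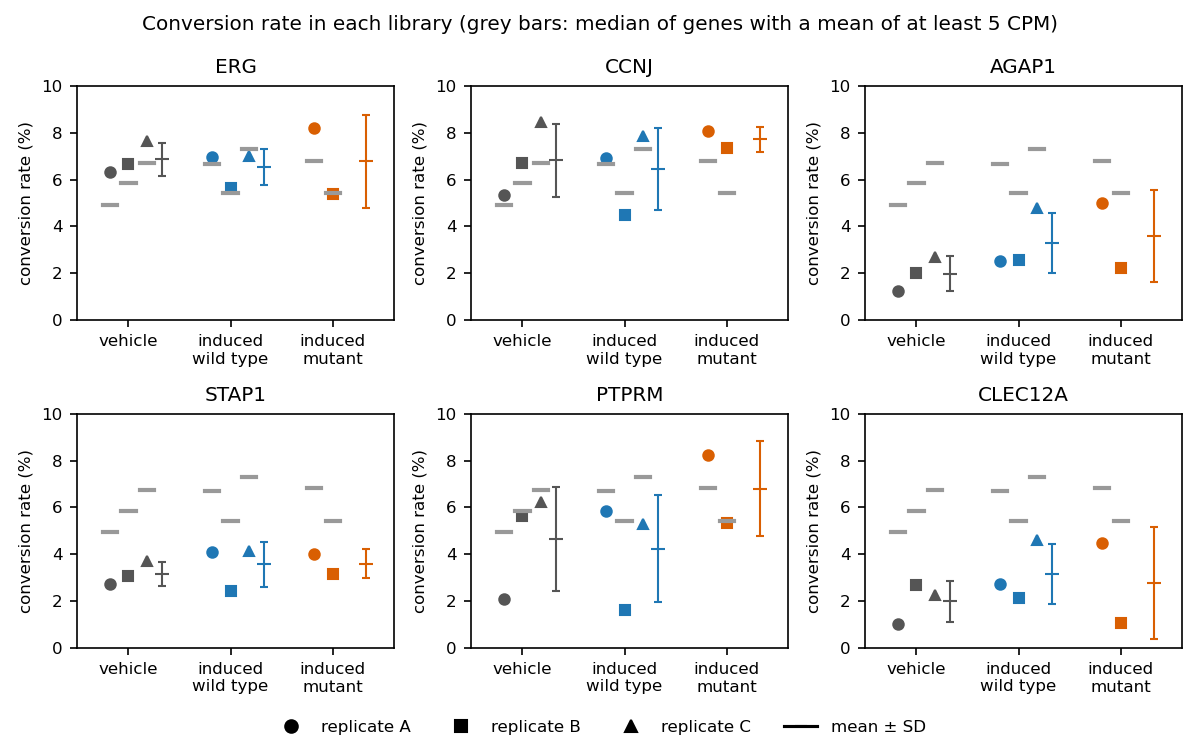
Conversion rate (%, vertical axes) of the 6 genes in the 8 libraries, by group, with points for replicates, the mean ± SD beside them, and a grey bar for each library's median over genes with a mean of at least 5 CPM. STAP1, CLEC12A and AGAP1 lie below the grey bars in every library.

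The first comparison asked what wild-type HMGN1 induction did to the markers. In all reads, log2(CPM + 1) of ERG differed by 0.02 (95% confidence interval -0.58 to 0.61), of AGAP1 by 0.08 (-0.29 to 0.44) and of STAP1 by -0.03 (-0.47 to 0.41). PTPRM differed by -0.03 (-0.56 to 0.50), CLEC12A by -0.01 (-0.41 to 0.39) and CCNJ by 0.25 (-0.71 to 1.21). None of the 6 passed limma at an adjusted p below 0.05, and 0% of all 12478 genes passed. None of the 6 had an unadjusted p below 0.05, against 1.17% of all genes. No member had groups that did not overlap, against 4.03% of all genes. The signs for ERG and AGAP1 turned under median centring and under edgeR and DESeq2 scaling. The median difference of the 6 genes was 0.00 and that of all genes 0.09. With 3 libraries against 3, differences within these intervals remain compatible with the values. Under the adjusted threshold larger changes could have been missed as well.

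New RNA is given here as CPM multiplied by the conversion rate, before centring, while its log2 differences were taken after each library's median was set to 0. In the same comparison AGAP1 new RNA lay above every vehicle value without passing the test. Its long row held 1.80, 2.73 and 3.43 with vehicle and 3.54, 3.47 and 7.46 in the induced wild type. The log2 difference was 0.54 ± 0.24 (SE; limma, unadjusted p = 0.0438, adjusted p = 0.982). Of 4 members tested, AGAP1 alone had groups that did not overlap in the higher direction, against 2.05% of all genes. None of the 4 passed, against 0.0103% of all genes, and 1 had an unadjusted p below 0.05, against 3.33%. PTPRM and CLEC12A were too low to be tested in this measure.

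ERG new RNA held 1.26, 1.83 and 2.44 with vehicle and 1.76, 1.11 and 2.58 in the induced wild type. Before centring the means were 1.84 and 1.81 and the log2 difference -0.049. After centring the log2 difference of ERG was -0.30 (95% confidence interval -0.69 to 0.08), that of STAP1 -0.14 (-0.55 to 0.27) and that of CCNJ -0.09 (-0.68 to 0.51). In converted reads, AGAP1 had 24.6, 23.5 and 35.9 FPKM with vehicle and 31.1, 54.6 and 61.6 FPKM in the induced wild type. The groups overlapped, and the log2(FPKM + 1) difference was 0.76 ± 0.37 (SE; limma, adjusted p = 0.674). None of the 3 members tested passed in converted reads, where 0% of all genes passed. None had an unadjusted p below 0.05, against 7.3% of all genes, or groups that did not overlap, against 12%.

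With the lowest row of each gene in place of the highest, the AGAP1 short row differed by 0.83 ± 0.33 (SE) in all reads (limma, unadjusted p = 0.0332, adjusted p = 0.993), where 0% of all genes passed. Its libraries did not overlap in the higher direction, against 2.55% of all genes. In new RNA it held 0.901, 1.50 and 1.95 with vehicle and 2.48, 2.91 and 4.31 in the induced wild type. That log2 difference was 0.88 ± 0.23 (SE; limma, unadjusted p = 0.00249, adjusted p = 0.983), with 1.9% of all genes not overlapping in the higher direction and 0.0108% passing.

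The second comparison set the induced mutant against vehicle. In all reads, 3 of the 6 genes (STAP1, CLEC12A and PTPRM) were lower in both mutant libraries than in every vehicle library, against 11.4% of all genes that did not overlap in the lower direction. These genes are not independent: over the libraries, Pearson r was 0.92 for STAP1 with CLEC12A, 0.57 for PTPRM with STAP1 and 0.64 for PTPRM with CLEC12A. PTPRM rested on 17 and 15 reads in mutant A and B. CLEC12A did not pass, with a difference of -0.59 ± 0.20 (SE; limma, unadjusted p = 0.0147, adjusted p = 0.966), from 3.88 ± 0.57 CPM (SD, n = 3) to 2.22 ± 0.15 CPM (SD, n = 2). STAP1 differed by -0.45 ± 0.22 (adjusted p = 0.99997 by limma), ERG by -0.49 ± 0.29 and PTPRM by -0.44 ± 0.26, each ± SE. With a replicate block the ERG difference was -0.30, and without vehicle library B that of PTPRM was -0.28. None of the 6 passed limma, against 0.0321% of all genes, and 1 had an unadjusted p below 0.05, against 3.59%. The median difference of the 6 genes was -0.44 and that of all genes -0.04. Over the alternative scalings, filters and tools, the CLEC12A difference ran from -0.77 to -0.51, with adjusted p-values no lower than 0.350.

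In all reads the ERG groups overlapped. In converted reads ERG was lower, with 14.6, 17.8 and 17.7 FPKM with vehicle against 13.1 and 10.4 FPKM in the induced mutant. These groups did not overlap in the lower direction, against 7.81% of all genes. The log2(FPKM + 1) difference was -0.48 ± 0.35 (SE; limma, adjusted p = 0.665), and -0.75 after median centring. Over the alternative runs it ran from -0.75 to -0.38, and with 1 library left out from -0.63 to -0.33. In new RNA, ERG held 1.65 and 0.889 in the mutant libraries, within and below the vehicle range, and its log2 difference was -0.58 ± 0.20 (SE; limma, unadjusted p = 0.0136, adjusted p = 0.429).

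AGAP1 went the other way. It had 84.5 and 50.8 FPKM of converted reads in the mutant libraries, both above every vehicle library, against 20.4% of all genes that did not overlap in the higher direction. The log2(FPKM + 1) difference was 1.22 ± 0.41 (SE; limma, unadjusted p = 0.0110, adjusted p = 0.290). In new RNA of the long row it was 0.83 ± 0.26 (SE; limma, adjusted p = 0.380), with 7.42 in mutant A above and 3.14 in mutant B within the vehicle range. Without mutant A this difference was 0.46. None of the 3 members passed in converted reads, against 0% of all genes, and 1 had an unadjusted p below 0.05, against 11.6%. In new RNA none of the 4 passed, against 0.031% of all genes, 2 had an unadjusted p below 0.05, against 7.57%, and no member's groups were free of overlap, against 8.76%.

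For the short row of AGAP1 the mutant comparison gave 1.10 ± 0.37 (SE) in all reads (limma, unadjusted p = 0.0160, adjusted p = 0.962), with 4.65% of all genes not overlapping in the higher direction and 0.0331% passing. In new RNA it held 5.10 and 2.55 in mutant A and B, again above vehicle. That difference was 1.27 ± 0.25 (SE; limma, unadjusted p = 3.61e-04, adjusted p = 0.140), with 3.13% of all genes not overlapping in the higher direction and 0.0325% passing.

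The third comparison set the 2 lines against each other under doxycycline. In all reads STAP1 and CLEC12A were lower in both mutant libraries than in every induced wild-type library, or 2 of 6 genes against 13.2% of all genes in that direction. CLEC12A differed by -0.58 ± 0.20 (SE; limma, unadjusted p = 0.0158, adjusted p = 0.9996) and STAP1 by -0.42 ± 0.22 (SE; limma, adjusted p = 0.9996). ERG differed by -0.51 (95% confidence interval -1.17 to 0.16), CCNJ by -0.37 (-1.45 to 0.70) and AGAP1 by 0.01 (-0.39 to 0.42). PTPRM differed by -0.41 ± 0.26 (SE). Without induced wild-type library C these differences were -0.27 for ERG and -0.21 for PTPRM, and with a replicate block that of ERG was -0.32. The median of the 6 was -0.41 and of all genes -0.12. None of the 6 passed, against 0.0321% of all genes, and 1 had an unadjusted p below 0.05, against 2.84%.

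The AGAP1 short row did not separate the 2 induced groups, with a difference of 0.26 (95% confidence interval -0.58 to 1.10) in all reads and 0.39 (-0.16 to 0.95) in new RNA. In converted reads no member passed (0% of all genes), had an unadjusted p below 0.05 (2.81%) or groups that did not overlap (17%). In new RNA the same held, beside 0.0103%, 3.36% and 9.89% of all genes. These 3 comparisons share libraries, so their values for a gene are not independent of each other.

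For the conversion rate with each library's median set to 0, no member passed limma in any comparison, and 0% of all genes passed. Unadjusted p-values below 0.05 numbered 0 of 4 in the induced wild type against vehicle (4.43% of all genes), 1 in the induced mutant against vehicle (7.97%) and 1, CCNJ, between the induced groups (5.15%). In the induced wild type against vehicle, AGAP1 differed by 0.46 ± 0.23 (SE) and ERG by -0.20 ± 0.10 (SE), both with an adjusted p of 0.947 by limma. In the induced mutant against vehicle, AGAP1 differed by 0.62 ± 0.25 (SE; limma, unadjusted p = 0.0362, adjusted p = 0.594). This value was 0.26 without mutant library A and 0.98 without mutant library B, and that of the induced wild type against vehicle was 0.29 without induced wild-type library C. The short row alone differed by 0.16 ± 0.14 (SE) and 0.17 ± 0.15 (SE) in these comparisons. The rest of the long row converted at 1.05% on average with vehicle (at most 1.43%), 1.43% in the induced wild type (2.85% in library C) and 1.47% in the induced mutant (2.41% in library A). The part of the short row in the shift of the long row was not tested.

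**Figure D5:**
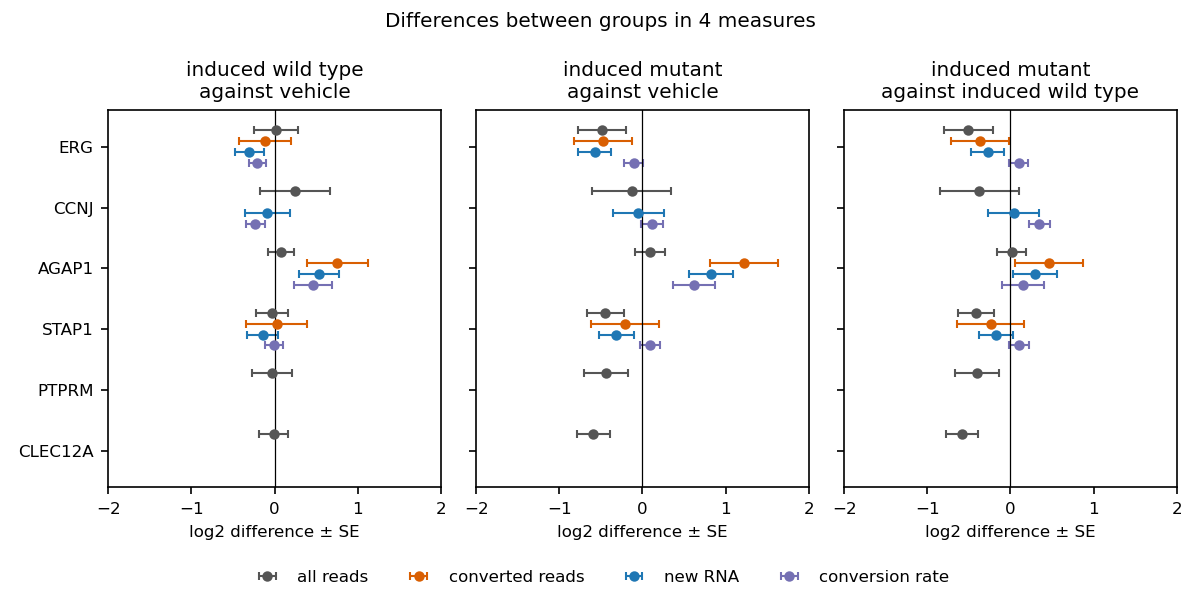
Log2 difference ± SE (horizontal axes) of each gene in all reads, converted reads, new RNA and conversion rate, in the 3 comparisons, for the genes tested in each measure. AGAP1 lies above 0 in converted reads, new RNA and conversion rate in both comparisons with vehicle. ERG, CCNJ, STAP1, PTPRM and CLEC12A lie below 0 in all reads of the mutant comparisons. None passed the test.

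Genes around the markers were read from 15 lists. DUX4 itself was at 0 reads in all 8 libraries, which allows up to 0.169 CPM in the deepest and 0.376 CPM in the shallowest library, for counting error only. DUX4 lies in repeats to which short reads place poorly, so its 0 says little about its RNA. Of the 20 genes that DUX4 activates in the early embryo and in muscle disease, 18 had a mean below 1 CPM and 6 were at 0 in every library. The exceptions were H3-5, a histone H3 gene with near-identical relatives, at 33.1 CPM and ZNF217, a zinc-finger repressor, at 5.88 CPM.

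Of 5 further genes described in DUX4-rearranged or ERG-altered leukaemia, CHST2, a sulfotransferase for carbohydrates, had 90.1 CPM, its relative CHST7 6.08 CPM, LHFPL2 1.33 CPM and the lectin CLEC12B 0.979 CPM. The adhesion molecule CD2, often present on blasts of this subtype, was at 0 in all libraries. Among 27 ETS genes, 17 had a mean of at least 1 CPM, including ELF2 (78.3 CPM) and FLI1 (24.2 CPM), the closest relative of ERG. Their median log2 difference was 0.27 in the induced wild type against vehicle, 0.11 in the induced mutant against vehicle and -0.20 between the induced groups, beside 0.09, -0.04 and -0.12 over all genes.

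Relatives of the other members were present as well. The kinases SYK and BTK, which act in the same receptor pathway as STAP1, had 72.2 and 66.4 CPM, and STAP2 0.990 CPM. AGAP2 and AGAP3 had 5.81 and 2.58 CPM at conversion rates of 7.36% and 7.98%. Of 20 receptor tyrosine phosphatases, 12 had a mean of at least 1 CPM, including PTPRA (44.7 CPM), PTPRS (24.5 CPM) and PTPRG, whose 244 CPM had a conversion rate of 0.0413%. In the lectin cluster CLEC2D (37.7 CPM) and CLEC2B (7.68 CPM) reached 1 CPM beside CLEC12A, and of the cyclins CCND3 had 110 CPM, CCNB1 62.8 CPM and CCNB2 40.6 CPM. These values are scaled to library depth and not to length, so they rank no gene against another.

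Of 23 genes that mark other leukaemia subtypes, 8 had a mean of at least 1 CPM, including TCFL5 (39.5 CPM), HDAC9 (11.0 CPM) and MERTK (9.55 CPM). Over the 15 lists, 0 of 80 tested entries passed limma in all reads of any comparison, against 0%, 0.0321% and 0.0321% of all genes in the 3 comparisons. These entries include the 6 members, and BLNK more than once. Unadjusted p-values below 0.05 numbered 1 in the induced wild type against vehicle (1.17% of all genes), 7 in the induced mutant against vehicle (3.59%) and 6 between the induced groups (2.84%). CLEC12A was among those of both mutant comparisons. The smallest adjusted p was 0.355.

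The genes whose log2(CPM + 1) followed each member most closely over the 8 libraries are given as a description. ERG was followed by VPS45 (Pearson r 0.99, Spearman rho 0.98), STAP1 by CHKB-CPT1B (0.99 and 0.95) and MME (0.99 and 1.00), and CLEC12A by ADARB2 (0.99 and 1.00) and SPPL2B (0.98 and 0.98). CCNJ was followed by CRY1 (1.00 and 1.00), and 2018 of 8736 genes had an r above 0.9 with it. ERG had 533 such genes, STAP1 224 and CLEC12A 120. For AGAP1 the closest was IMMP2L (0.84 and 0.90) and for PTPRM ZNF367 (0.89 and 0.71), with no gene above 0.9. All these values come from the same 8 libraries, and what makes a high r common for some members was not tested. Pearson r with the converted share was 0.93 for CCNJ, 0.69 for ERG and 0.51 for STAP1. It was 0.28 for CLEC12A, 0.22 for AGAP1 and 0.13 for PTPRM.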

How the data were processed

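SLAM-seq libraries of NALM6 cells were grouped by their labels into 3 vehicle, 3 induced wild type and 2 induced mutant. Per the labels' protocols, a stranded poly(A) library kit and a NextSeq sequencer were used, and per the submitters' processing notes the build was hg19 (GRCh37). Not given in the sources used here are the aligner, the conversion caller and the counting rules. The table of all reads was deposited as a signal per RefSeq transcript, headed CPM, and division by the smallest step of a library gave whole reads for 100% of values within 0.1 read. Deposited conversion values were read as a fraction of bases: of 12594 rows with 1 read and conversion above 0, 12527 were below 1. Converted reads were deposited as FPKM per transcript.

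Transcripts took RefSeq symbols by accession (GRCh38.p14, names only; 60133 of 61177 rows matched), and a gene took its row with the highest mean. Values were tested with limma 3.58.1 (R 4.3.3; lmFit, eBayes) in 1 model of 8 libraries without covariates: log2(CPM + 1) and log2(FPKM + 1) at a mean of at least 1, new RNA as log2(CPM x conversion + 0.1) at a mean of at least 0.2, and log2(conversion in percent + 0.5) at a mean of at least 5 CPM. Fold changes of low genes are understated on these scales. The latter 2 measures had each library's median set to 0. P-values were adjusted by Benjamini-Hochberg over every gene tested in a comparison, with a threshold of 0.05. Confidence intervals are 95% intervals of the same fit. Alternatives were edgeR 4.0.16 and DESeq2 1.42.0 on recovered reads, other pseudocounts, filters, scalings and rows, a replicate block, and each library left out. The steps were tested on simulated data with large changes placed in the induced wild type only and a fixed spread between libraries. That test says nothing of power for smaller differences or for the mutant comparisons. Plots and tables used Python 3.11.15, pandas 2.3.3 and matplotlib 3.10.9.

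The members and lists were chosen with earlier results of these data known. Members were named with every row, and from each list the genes that passed or else the 3 with the highest mean, plus the 2 genes closest to each member over libraries. AGAP2, AGAP3, CHST7, LHFPL2, CLEC12B, STAP2 and CD2 complete short lists, and the AGAP1 short row, TMSB10 and ENTPD1-AS1 were chosen after their values were seen. Spans came from GENCODE 29 (GRCh38) and were used for structure only.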

Additional observations from a re-analysis of the deposited data

How the results depend on the processing

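No member passed in any of the 4 measures and 3 comparisons under any alternative run, edgeR, DESeq2 and each library left out included. Several small differences changed sign, all of them without passing, and the causes were not tested. In all reads of the induced wild type against vehicle, ERG became -0.12 and AGAP1 -0.059 under median centring, -0.087 and -0.060 under edgeR with TMM, -0.11 and -0.081 under edgeR with DESeq2 size factors, and -0.11 and -0.080 under DESeq2. ERG became -0.056 and STAP1 0.0063 under quantile normalization, and with the lowest row CLEC12A became 0.048 and ERG -0.053. STAP1 in converted reads of that comparison became -0.31 under median centring and -0.19 under quantile normalization. Without median centring, STAP1 became 0.13 in conversion rate and 0.11 in new RNA, and CCNJ in new RNA 0.17 in the induced wild type against vehicle, 0.010 in the induced mutant against vehicle and -0.16 between the induced groups. With a replicate block, CCNJ in the induced mutant against vehicle became 0.15 in all reads and 0.12 in new RNA. Whether replicate letters pair the libraries is not known. Same-letter correlations of deviations from group means ran from -0.64 to 0.65 in all reads, and different-letter ones from -0.71 to 0.71. Deviations within so small a group sum to 0, which forces correlations of both signs, so these values cannot decide it. With the block, all-gene counts in all reads went from 4 to 2 (induced mutant against vehicle) and from 4 to 3 (between induced groups).

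Leaving out 1 library in turn changed signs in these ranges. In all reads of the induced wild type against vehicle, they were -0.21 to 0.22 for ERG, -0.10 to 0.63 for CCNJ, -0.10 to 0.066 for CLEC12A, -0.22 to 0.13 for PTPRM and -0.15 to 0.11 for STAP1. In all reads CCNJ ran from -0.57 to 0.32 in the induced mutant against vehicle and from -0.82 to 0.074 between the induced groups, where AGAP1 ran from -0.031 to 0.072. In converted reads of the induced wild type against vehicle, ERG ran from -0.27 to 0.018 and STAP1 from -0.18 to 0.35. In new RNA CCNJ ran from -0.31 to 0.19, from -0.28 to 0.18 and from -0.24 to 0.27 in the 3 comparisons in that order, and AGAP1 between the induced groups from -0.072 to 0.66. In conversion rate, STAP1 ran from -0.089 to 0.094 in the induced wild type against vehicle, ERG from -0.24 to 0.026 in the induced mutant against vehicle, and between the induced groups ERG ran from -0.034 to 0.23 and AGAP1 from -0.21 to 0.51.

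Counts over all genes moved more. In all reads of the induced mutant against vehicle, 4 genes passed limma, 3 passed edgeR and 75 DESeq2. Between the induced groups the numbers were 4, 3 and 13. In converted reads of the induced mutant against vehicle, 0 passed limma, 11 after median centring, 21 after quantile normalization, 3 with a filter at a mean of 5, and 23 with a mean-variance trend, which was added after seeing the data. In new RNA of that comparison 3 passed, 17 with only the 2 groups in the fit, 73 without a filter and 18 without induced wild-type replicate B. PTPRM and CLEC12A, with 15 to 45 and 22 to 78 reads per library, are limited by depth.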
